A study of Mus musculus with 12 samples.

Results

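Fibroblast growth factor (FGF) signalling was followed through 10 genes named for their place in the pathway. They are the ligands Fgf8, Fgf10 and Fgf20, the receptors Fgfr1, Fgfr2 and Fgfr3, the feedback inhibitors Spry1, Spry2 and Spry4, and Etv5, a transcription factor gene switched on by the pathway. All 10 are among the 55416 genes counted, and 7 of them had enough reads to be tested. RNA was sequenced from 6 libraries of inner hair cells (IHCs) and 6 of outer hair cells (OHCs), the sensory cells of the cochlea, taken from mouse pups on postnatal day 0 and labelled as wild type. Each library was a pool of cells from several pups of both sexes, sorted by fluorescence. The alleles belonged to the mice and not to a cell type. They were Atoh1-GFP, a reporter for hair cells, Insm1-GFP-Cre, and R26-tdTomato, a reporter that Cre switches on. IHCs were collected as cells with GFP only and OHCs as cells with GFP and tdTomato, so membership of the OHC pools depended on past activity of the Insm1 gene, and Insm1 is itself an OHC gene at this age.

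An FGF ligand leaves the cell, binds a receptor tyrosine kinase together with heparan sulfate, and starts the RAS and MAP kinase cascade in the receiving cell. That cell then makes ETS factors such as ETV5, which carry the response, and Sprouty proteins, which damp it. In the cochlea FGF20 acting through FGFR1 is needed for the making of hair cells and supporting cells, and FGF8 from IHCs acting through FGFR3 directs the neighbouring pillar cells. FGF10 works with FGFR2 in the growth of the otic epithelium.

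The libraries held between 29564827 and 44017309 counts on genes, of which ribosomal RNA genes took between 21.5% and 56.9%, the most in IHC replicate 1. The 3 IHC markers Tbx2, Slc17a8 and Otof passed the test with higher levels in IHCs, and 4 of the 5 OHC markers, Insm1, Bcl11b, Neurod6 and Slc26a5, passed with higher levels in OHCs. Ikzf2, the remaining OHC marker, did not pass. Insm1 drives the Cre allele used in the sort, so its difference is no independent check of the pools. Levels are given as CPM, the counts of a gene scaled to library size. Markers of other cells were not evenly spread. Those of the greater epithelial ridge summed to between 628 and 1139 CPM in IHC libraries and to between 91.8 and 442 CPM in OHC libraries. That sum was mostly Tecta, a gene of the tectorial membrane, at 576 to 1086 CPM and 52.2 to 403 CPM respectively (log2 fold change -1.81, edgeR adjusted p = 0.00211). The other 6 markers of the ridge summed to between 14.5 and 56.3 CPM in IHC libraries and to between 33.9 and 67.1 CPM in OHC libraries. The 20 supporting cell markers summed to between 647 and 1686 CPM in IHC libraries and to between 579 and 1162 CPM in OHC libraries. These sums hide differences of single markers. Of the 17 tested, 3 passed with the higher level in IHCs, Sox2, Heyl and Gjb2, and 1 with the higher level in OHCs, Prox1, where 6.26% of all tested genes passed in either direction. Endothelial markers were low in IHC libraries, at 0.082 to 3.19 CPM in sum, and higher in OHC libraries, at 12.8 to 149 CPM. Spiral ganglion neuron markers summed to 338 to 601 CPM against 109 to 185 CPM, and mesenchymal markers to 33.9 to 58.0 CPM against 7.22 to 21.9 CPM, in IHC and OHC libraries respectively. In bulk RNA, fewer cells of a type and less RNA per cell cannot be told apart.

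Both ligand genes that could be tested, Fgf8 and Fgf10, were far higher in IHCs, and no IHC library overlapped any OHC library for either gene. Across the whole genome 6.26% of the 13269 tested genes passed the test in either direction, at a Benjamini-Hochberg adjusted p under 0.05 from edgeR's quasi-likelihood test, 3.81% with the higher level in IHCs and 2.44% with the higher level in OHCs. The IHC and OHC libraries did not overlap for 4.60% of tested genes. Among the 7 tested members, 2 passed with the higher level in IHCs and 0 with the higher level in OHCs. With an unadjusted p under 0.05 in edgeR, or with DESeq2, 1 member, Fgfr3, had the higher level in OHCs. The shares above do not apply to these looser calls. Of the 13269 tested genes, 2889 had an unadjusted p under 0.05 in either direction. DESeq2 called 1590 genes higher in OHCs, of the 16911 to which it gave an adjusted p. The levels of the members are plotted by library.

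**Figure D1:**
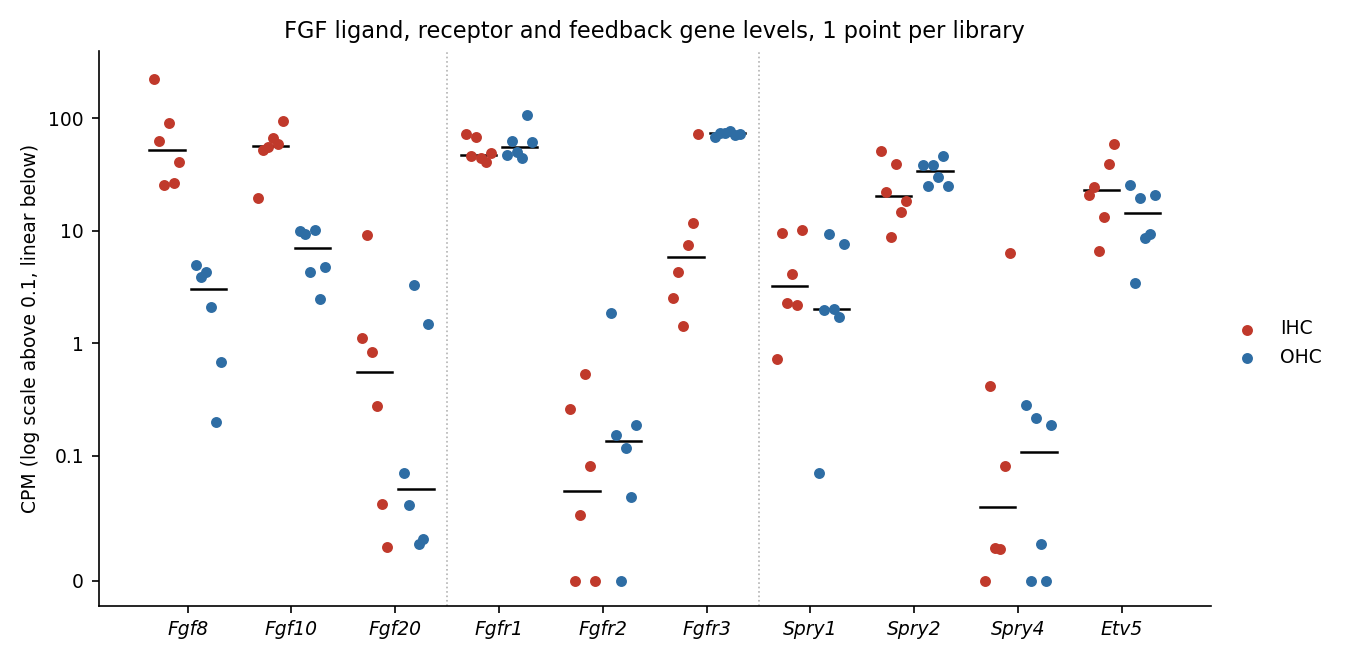
CPM of each of the 10 genes (y axis, logarithmic above 0.1 and linear below) with 1 point per library, IHC in red and OHC in blue. Black bars are group medians and dotted lines part ligands, receptors and feedback genes. The IHC and OHC points of Fgf8 and Fgf10 do not overlap, and 1 IHC point of Fgfr3 lies among the 6 OHC points.

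Fgf8 encodes the ligand that IHCs send to the pillar cells. On the GRCm39 genome it spans bases 45725237 to 45731354 of chromosome 19 (minus strand), and its canonical transcript has 5 exons. In IHC libraries Fgf8 ranged from 25.4 to 226 CPM with a median of 52.2 CPM. In OHC libraries it ranged from 0.20 to 4.98 CPM with a median of 3.01 CPM. The lowest IHC library was therefore above the highest OHC library, and the highest in CPM was IHC replicate 1. That rank depended on the scaling, since the next IHC library was at 90.7 CPM with TMM library sizes, whereas scaling by library totals gave 109 CPM in IHC replicate 1 and 95.6 in the next. In TPM (counts divided by exonic length and scaled to a common total), compared after the values were seen, IHC replicate 4 was highest at 182, with IHC replicate 1 at 146, and with ribosomal RNA genes removed IHC replicate 1 led again, at 534 against 483. The TMM factor of IHC replicate 1 was 0.486. From IHC to OHC this was a log2 fold change of -4.86 (standard error 0.72, edgeR adjusted p = 0.000319), or a 29.1-fold lower level in OHCs. Fgf8 was not absent from OHC libraries. OHC replicates 1 to 4 held between 73 and 231 counts of it, whereas OHC replicates 5 and 6 held 6 and 29 counts. The IHC markers Tbx2, Slc17a8 and Otof were also present in OHC libraries, at 3.84 to 13.0, 1.40 to 35.5 and 354 to 664 CPM. Whether the Fgf8 counts came from OHCs or from other cells in the pools was not tested.

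Fgf10 encodes a ligand of the receptor FGFR2. Its canonical transcript spans bases 118850915 to 118928672 of chromosome 13 (plus strand) in 3 exons. In IHC libraries Fgf10 ranged from 19.7 to 95.5 CPM with a median of 57.4 CPM. In OHC libraries it ranged from 2.47 to 10.1 CPM with a median of 7.04 CPM. The 2 groups did not overlap, and IHC replicate 1, the highest library for Fgf8, was the lowest IHC library for Fgf10. Fgf10 changed by -3.09 on the log2 scale from IHC to OHC (standard error 0.45, edgeR adjusted p = 0.000286). Cells of the greater epithelial ridge are known to express Fgf10. Of their markers Tecta was higher in the IHC libraries and the other 6 were not higher in sum. That sum was mostly Cst3, with means of 31.4 CPM in IHC and 32.7 CPM in OHC libraries. Singly the 6 went both ways, with higher means in IHC libraries for Crabp1, Fst and Dcn and in OHC libraries for Otoa, Epyc and Cst3. The part of these cells in the Fgf10 difference was not tested.

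The sequence around the start of Fgf10 is shown beside that of Fgfr3, the receptor gene with the largest difference, since Fgf10 was higher in IHCs and Fgfr3 had its higher mean in OHCs. Each window holds the 250 bases before the start of the canonical transcript and the first 50 of it, read 5′ to 3′ on the strand of the gene from the GRCm39 genome. Capitals mark the letters CAGCTG (the E-box form that hair cell factors of the ATOH1 class can bind), GGTGTG (the core of the T-box motif) or GGAA (the core of the ETS motif) on either strand, so that TTCC marks GGAA on the opposite strand. The Fgf10 window is chr13:118850665-118850964 and the Fgfr3 window is chr5:33878817-33879116.
Fgf10: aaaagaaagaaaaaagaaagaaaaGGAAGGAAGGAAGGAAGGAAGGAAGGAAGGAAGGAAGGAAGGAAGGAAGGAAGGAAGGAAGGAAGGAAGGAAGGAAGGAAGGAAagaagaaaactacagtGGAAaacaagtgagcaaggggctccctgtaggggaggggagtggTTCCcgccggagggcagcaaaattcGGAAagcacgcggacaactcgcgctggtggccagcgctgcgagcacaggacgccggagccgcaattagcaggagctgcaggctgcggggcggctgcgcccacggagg
Fgfr3: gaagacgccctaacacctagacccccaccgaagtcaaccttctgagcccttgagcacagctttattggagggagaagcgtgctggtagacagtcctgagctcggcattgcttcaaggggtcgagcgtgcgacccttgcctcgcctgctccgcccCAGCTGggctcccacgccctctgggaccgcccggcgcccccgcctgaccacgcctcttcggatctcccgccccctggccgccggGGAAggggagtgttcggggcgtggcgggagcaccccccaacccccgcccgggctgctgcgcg

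The windows have little in common. The Fgf10 window was 56.7% G and C and the Fgfr3 window 69.7%, against a median of 54.3% over the 21751 windows of protein-coding genes. CAGCTG was found once, in the Fgfr3 window with its first base 96 bases before the start, and 14.8% of all windows hold it. GGTGTG, which 19.5% of all windows hold, was found in neither window. GGAA, which 96.3% of all windows hold, stood once in the Fgfr3 window. The Fgf10 window held it 24 times, 21 of them in 1 unbroken tandem run, and only 3 of all windows, 0.0138%, held as many. A match of letters is a description and not a shown binding site.

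Fgf20 encodes the ligand that acts early in the formation of the organ of Corti. Its canonical transcript spans bases 40732207 to 40739994 of chromosome 8 (minus strand). In IHC libraries Fgf20 ranged from 0.027 to 9.23 CPM with a median of 0.56 CPM, and in OHC libraries from 0.029 to 3.28 CPM with a median of 0.074 CPM. It was sporadic in both cell types. IHC replicate 2 held 378 counts and OHC replicates 3 and 6 held 121 and 63, while no other library held more than 32. The gene did not pass the filter on low counts and was not tested, and the antisense gene Micu3, with up to 2235 counts, covers 12.04% of its exonic sequence.

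In IHC libraries the means of the other 15 secreted FGF ligands were at most 9.72 CPM, against 78.8 CPM for Fgf8 and 58.2 CPM for Fgf10. In OHC libraries Fgf5, Fgf2 and Fgf1 had means of 13.9, 11.6 and 11.5 CPM, above the 6.83 CPM of Fgf10 and the 2.70 CPM of Fgf8. Of the 15 ligands, 6 had enough reads to be tested. Among these 6, 0 passed in edgeR in either direction, at the adjusted or the unadjusted threshold or with DESeq2. Their median log2 fold change was 0.35, against a median of -0.04 over all tested genes. Fgf1, which had the highest mean of the 15 over the 12 libraries, ranged from 0.11 to 24.1 CPM in IHC libraries and from 0.58 to 19.9 CPM in OHC libraries (log2 fold change 0.25, standard error 0.92, edgeR adjusted p = 0.905). Fgf4 and Fgf23 had 0 counts in every library, where 3 counts would be worth between 0.065 and 0.196 CPM. To compare ligands with one another, TPM was used, since it corrects for gene length, and each ligand was given as its percent of the TPM summed over all 18. Fgf8 made up 49.8% to 91.6% of that sum in the IHC libraries, against 1.09% to 26.9% in the OHC libraries. Fgf10 made up 2.19% to 35.0% in the IHC libraries, against 3.67% to 18.2% in the OHC libraries. The sum itself ran from 101 to 258 TPM in IHC libraries and from 29.9 to 54.8 TPM in OHC libraries, so ligand transcripts in IHCs were mostly those of Fgf8 and Fgf10, and those in OHCs were fewer and spread over more ligands.

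**Figure D2:**
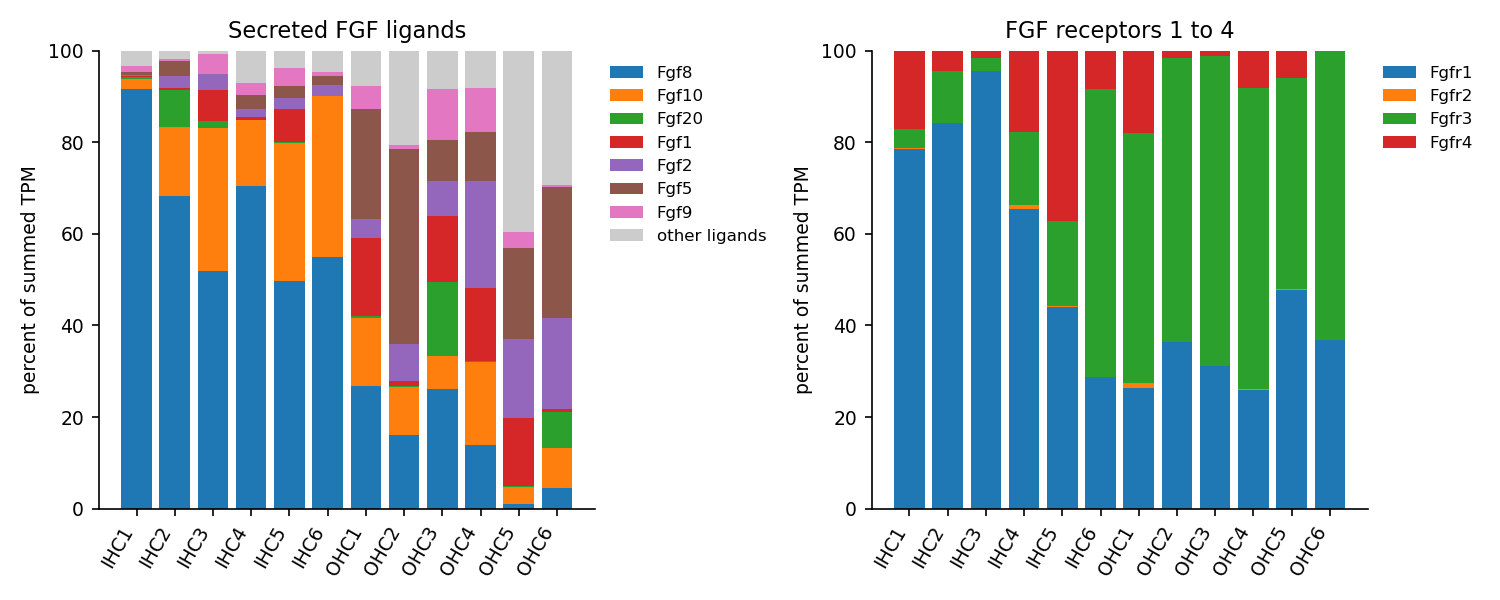
Percent of the TPM summed over 18 secreted FGF ligands (left) and over 4 FGF receptors (right) that each gene made up, with 1 bar per library. Fgf8 holds 49.8% or more of the ligand bar in every IHC library and 26.9% or less in every OHC library, and Fgfr3 holds 62.8% of the receptor bar in IHC replicate 6 and 18.6% or less in the other 5 IHC libraries.

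Fgfr3 encodes the receptor that is known for its role in pillar cells and Deiters' cells and is also made in OHCs. Its canonical transcript spans bases 33879067 to 33894412 of chromosome 5 (plus strand) in 18 exons. In OHC replicates 1 to 6 Fgfr3 stood at 67.8, 74.4, 74.8, 77.8, 70.7 and 72.9 CPM. In IHC replicates 1 to 6 it stood at 2.55, 4.28, 1.44, 7.48, 11.8 and 73.3 CPM. In CPM the OHC libraries were nearly level, with a coefficient of variation of 4.75%, and 3 of the 13269 tested genes varied less among OHC libraries, where the median gene had 51.3%. In TPM, which is not TMM-scaled, the OHC libraries ran from 17.6 to 29.4 with a coefficient of variation of 17.5%, and 549 genes varied less. The first 5 IHC libraries all lay below every OHC library, and IHC replicate 6 lay among the OHC libraries.

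The value of the Fgfr3 comparison therefore rests on 1 library. Over all 12 libraries the log2 fold change was 2.12 (standard error 0.69) and did not pass (edgeR adjusted p = 0.0722). Without IHC replicate 6 it was 3.72 (standard error 0.48) and passed (edgeR adjusted p = 0.000108), in a fit where 2.67% of 13717 tested genes passed with the higher level in OHCs. Leaving out any other single library gave log2 fold changes from 1.87 to 2.13 and no call. An antisense gene of unknown product, G630022F23Rik, shares 13.1% of the exonic bases of Fgfr3 and had at most 338 counts.

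Other genes in IHC replicate 6 are given beside this value. The OHC marker Insm1 was at 0.44 CPM there and at 27.3 CPM or more in every OHC library, though the sort itself selected against Insm1 activity in IHC pools. Bcl11b was at 0.054 CPM there and at 38.0 CPM or more in every OHC library, and Neurod6 was at 0.054 CPM there and at 9.57 CPM or more in OHC libraries. Prox1, a homeobox gene of OHCs, pillar cells and Deiters' cells, was at 79.7 CPM there, at 32.5 CPM or less in the other IHC libraries and at 162 CPM or more in OHC libraries. Prox1 passed with the higher level in OHCs (log2 fold change 2.92, edgeR adjusted p = 0.000467), so it does not mark supporting cells alone here. IHC replicate 6 was the highest IHC library for 8 of the 20 supporting cell markers, against 16.0% of all tested genes. It was the lowest or second lowest for 6 of the 20, and the lowest for 2, Heyl and Hey2. The 8 were Hes5, Ngfr, Cryab, Tectb, Otogl, Prox1, Matn4 and Slc2a3. Ngfr, the p75 receptor gene known from pillar cells, was at 67.8 CPM in it and at 44.6 CPM or less in the others, with 8.84 CPM or less in every OHC library. The summed level of the 20 supporting cell markers in IHC replicate 6, 1385 CPM, was not the highest among IHC libraries, which was 1686 CPM in IHC replicate 5. The part of any of these cells in the Fgfr3 value was not tested.

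**Figure D3:**
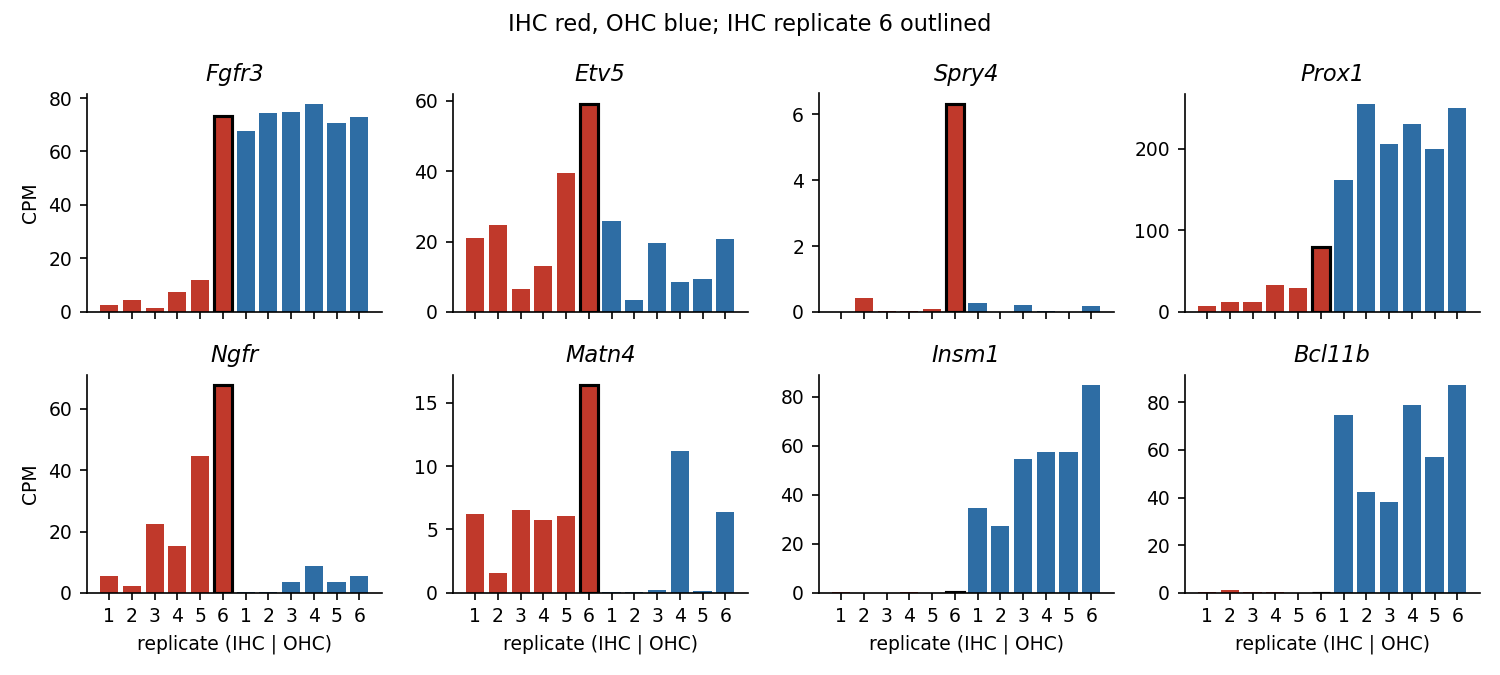
CPM (y axes) of Fgfr3, Etv5, Spry4, the supporting cell markers Prox1, Ngfr and Matn4 and the OHC markers Insm1 and Bcl11b in each library, IHC in red and OHC in blue, with IHC replicate 6 outlined. In IHC replicate 6 Fgfr3 reaches 73.3 CPM and Ngfr 67.8 CPM, while Insm1 and Bcl11b stay at 0.44 and 0.054 CPM. Prox1, Ngfr and Matn4 are from the 8 of 20 supporting cell markers that were highest there among IHC libraries. Another 6 of the 20, not plotted, were lowest or second lowest there.

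Fgfr1 encodes the receptor used by FGF20. Its canonical transcript spans bases 26008745 to 26066824 of chromosome 8 (plus strand). In IHC libraries Fgfr1 ranged from 40.7 to 72.5 CPM with a median of 47.4 CPM, and in OHC libraries from 44.4 to 106 CPM with a median of 55.7 CPM. The groups overlapped widely, and OHC replicate 5 stood above all the rest. Between the cell types the log2 fold change was 0.22 (standard error 0.28, edgeR adjusted p = 0.70) and it became -0.0091 without OHC replicate 5.

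Fgfr2, the receptor gene for FGF10, was close to the detection limit in both cell types. Its canonical transcript spans bases 129763471 to 129868272 of chromosome 7 (minus strand). It had 0 counts in 2 IHC libraries and 1 OHC library, where 3 counts would be worth between 0.065 and 0.196 CPM, and at most 21 counts in an IHC library. OHC replicate 1 held 86 counts, or 1.85 CPM, and no other OHC library held more than 8. The gene was not tested. Expressed as percent of the TPM summed over Fgfr1 to Fgfr4, Fgfr2 never exceeded 1.16%. Fgfr1 made up between 44.1% and 95.5% of that sum in IHC replicates 1 to 5, 28.9% in IHC replicate 6 and between 25.97% and 47.9% in OHC libraries. Fgfr3 made up between 46.1% and 67.6% in OHC libraries.

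Fgfr4, the other signalling receptor gene, ranged from 0.37 to 11.9 CPM in IHC libraries and from 0.094 to 11.2 CPM in OHC libraries, and did not pass (log2 fold change -0.31, edgeR adjusted p = 0.89). The list of other receptors, co-receptors and binding proteins held 17 genes, of which 12 were tested and 0 passed in edgeR in either direction. Among the 12, 1 had an unadjusted p under 0.05 in edgeR, against 2889 of all 13269 tested genes. DESeq2 called 0 of the 12, against 17.3% of all genes to which it gave an adjusted p. The highest gene of the list was Gpc1, a cell surface heparan sulfate proteoglycan, at 66.8 to 281 CPM in IHC libraries and 82.6 to 113 CPM in OHC libraries (log2 fold change -0.54, standard error 0.28, edgeR adjusted p = 0.27).

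The Sprouty genes encode inhibitors that act inside the receiving cell. Spry2, at bases 106128766 to 106134792 of chromosome 14 (minus strand), was the most abundant of them. It ranged from 8.85 to 51.9 CPM in IHC libraries, with a median of 20.4 CPM, and from 24.9 to 46.7 CPM in OHC libraries, with a median of 34.4 CPM. The groups overlapped, and the log2 fold change was 0.39 (standard error 0.41, edgeR adjusted p = 0.62). Of the TPM summed over Spry1, Spry2 and Spry4, Spry2 made up 53.5% to 98.5% in the IHC libraries, against 74.8% to 99.2% in the OHC libraries.

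Spry1, at bases 37693897 to 37698755 of chromosome 3 (plus strand), was lower and more uneven. It ranged from 0.72 to 10.3 CPM in IHC libraries, with a median of 3.22 CPM, and from 0.086 to 9.44 CPM in OHC libraries, with a median of 2.01 CPM. Its log2 fold change was -0.35 (standard error 0.93, edgeR adjusted p = 0.86), and it became 0.025 without IHC replicate 6. No direction can be read for this gene.

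Spry4, on chromosome 18, was listed at 0 counts in 1 IHC library and 2 OHC libraries and was not tested. IHC replicate 6 held 232 counts of it, or 6.32 CPM. The other IHC libraries held at most 17 counts, or 0.42 CPM, and the OHC libraries at most 13 counts, or 0.28 CPM. The signal for Spry4 thus came almost wholly from 1 library, the same IHC library in which Fgfr3 lay among the OHC libraries.

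Etv5 encodes an ETS transcription factor made in response to FGF signals. Its canonical transcript spans bases 22200057 to 22258483 of chromosome 16 (minus strand) in 13 exons. In IHC libraries Etv5 ranged from 6.57 to 59.2 CPM with a median of 22.9 CPM, and in OHC libraries from 3.41 to 25.7 CPM with a median of 14.4 CPM. IHC replicates 5 and 6 were above every OHC library and the other 4 IHC libraries lay within the OHC range. The log2 fold change was -0.91 (standard error 0.55) and did not pass (edgeR adjusted p = 0.35).

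IHC replicate 6 was the highest IHC library for 5 of the 10 genes, Fgf10, Fgfr3, Spry1, Spry4 and Etv5. Over all tested genes it was the highest IHC library for 16.0%. IHC replicate 1, the library with the most ribosomal RNA, was the highest in CPM for Fgf8, Fgfr1 and Spry2. In TPM over all genes it was highest for none of these, with IHC replicate 3 highest for Fgfr1 at 15.3 against 4.97 TPM, and IHC replicate 4 highest for Spry2 at 20.7 against 8.83 TPM. The calls for Fgf8 and Fgf10 held without IHC replicate 6, at log2 fold changes of -5.02 and -2.90, and the plot of fold changes shows both fits.

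**Figure D4:**
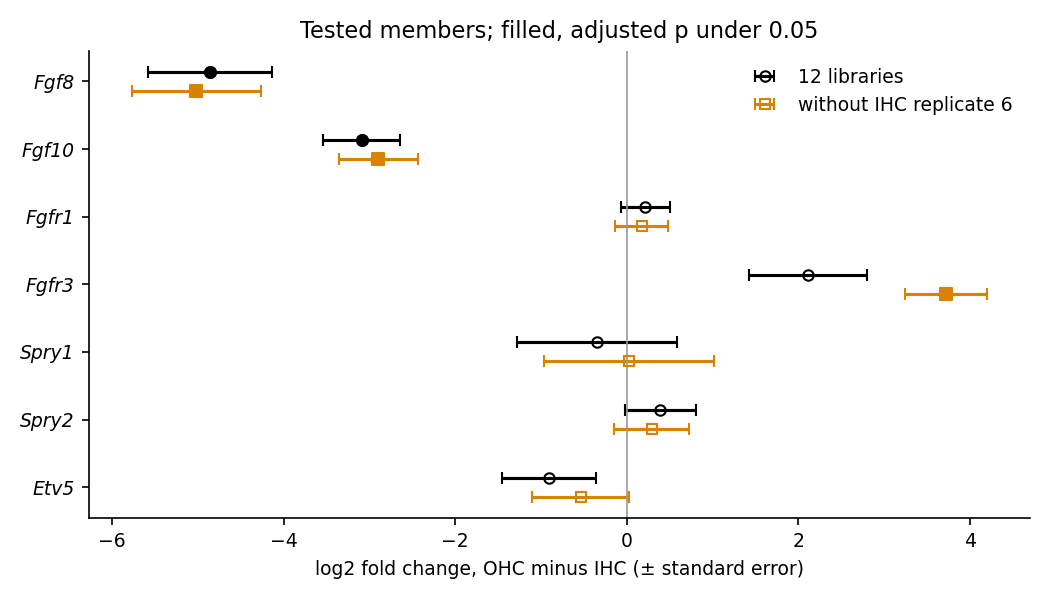
Log2 fold change of OHC over IHC with its standard error for the 7 tested members, from all 12 libraries (black circles) and without IHC replicate 6 (orange squares). Filled symbols passed the test. Fgf8 and Fgf10 pass in both fits, and Fgfr3 moves from 2.12 to 3.72 and passes only without IHC replicate 6.

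The 7 other pathway lists, those of ligands and co-receptors included, held 94 genes, of which 69 were tested. Of these 3 passed with the higher level in IHCs and 3 with the higher level in OHCs, or 8.70%, close to the 6.26% of all tested genes, and their median log2 fold change was -0.0032.

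Of 21 adaptors and MAP kinase cascade genes, all 21 were tested, 1 passed with the higher level in IHCs and 0 with the higher level in OHCs. The gene that passed was Sos2, which encodes an exchange factor that loads RAS with GTP, at 55.6 to 155 CPM in IHC libraries and 40.1 to 61.3 CPM in OHC libraries. Its IHC replicate 1 lay within the OHC range and the other 5 above it. The log2 fold change of Sos2 was -1.23 (standard error 0.28, edgeR adjusted p = 0.0104). Braf, a kinase gene of the cascade and the highest gene of the list, stood at 169 to 387 CPM in IHC libraries and 257 to 437 CPM in OHC libraries (log2 fold change 0.17, standard error 0.22, edgeR adjusted p = 0.68).

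Among 11 heparan sulfate enzymes, 10 were tested, and 1 passed in each direction. Ext1 and Ext2 encode the partner glycosyltransferases that build the heparan sulfate chain, and they were called in opposite directions. Ext1 ranged from 23.1 to 58.3 CPM in IHC libraries and from 59.7 to 125 CPM in OHC libraries, so the groups met without overlapping (log2 fold change 1.39, standard error 0.31, edgeR adjusted p = 0.00979). Ext2 ranged from 52.2 to 2838 CPM in IHC libraries, with a median of 80.8 CPM, and from 11.9 to 49.0 CPM in OHC libraries, with a median of 31.2 CPM. The groups did not overlap, but IHC replicate 5 alone held 2838 CPM. The log2 fold change of Ext2 was -4.04 (standard error 0.91, edgeR adjusted p = 0.0105) and fell to -1.21 without IHC replicate 5 (edgeR adjusted p = 0.0475). DESeq2 gave no p value for Ext2.

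The 12 other transcriptional targets held 9 tested genes, of which 1 passed with the higher level in IHCs and 2 with the higher level in OHCs. Etv1, an ETS factor gene related to Etv5, ranged from 8.76 to 81.0 CPM in IHC libraries and from 96.8 to 187 CPM in OHC libraries. The groups did not overlap, and the log2 fold change of Etv1 was 1.58 (standard error 0.40, edgeR adjusted p = 0.0201). Egr2, an immediate early gene, ranged from 0.39 to 6.85 CPM in IHC libraries and from 6.97 to 32.2 CPM in OHC libraries (log2 fold change 2.78, standard error 0.70, edgeR adjusted p = 0.0206). Without OHC replicate 2 neither Etv1 nor Egr2 passed, at adjusted p values of 0.0569 and 0.0518 from edgeR.

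Ccnd1, which encodes the cell cycle regulator cyclin D1, ranged from 9.92 to 37.2 CPM in IHC libraries and from 1.86 to 5.89 CPM in OHC libraries, with no overlap (log2 fold change -2.49, standard error 0.52, edgeR adjusted p = 0.00578). The antisense gene LTO1 shares 48.4% of its exonic bases. Without a stated strand setting it is not known how reads from the shared bases were assigned. Egr1, the highest gene of this list, stood at 146 to 356 CPM in IHC libraries and 272 to 471 CPM in OHC libraries (log2 fold change 0.52, standard error 0.23, edgeR adjusted p = 0.18). Targets thus passed in both directions, as the strip plot of the lists shows.

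**Figure D5:**
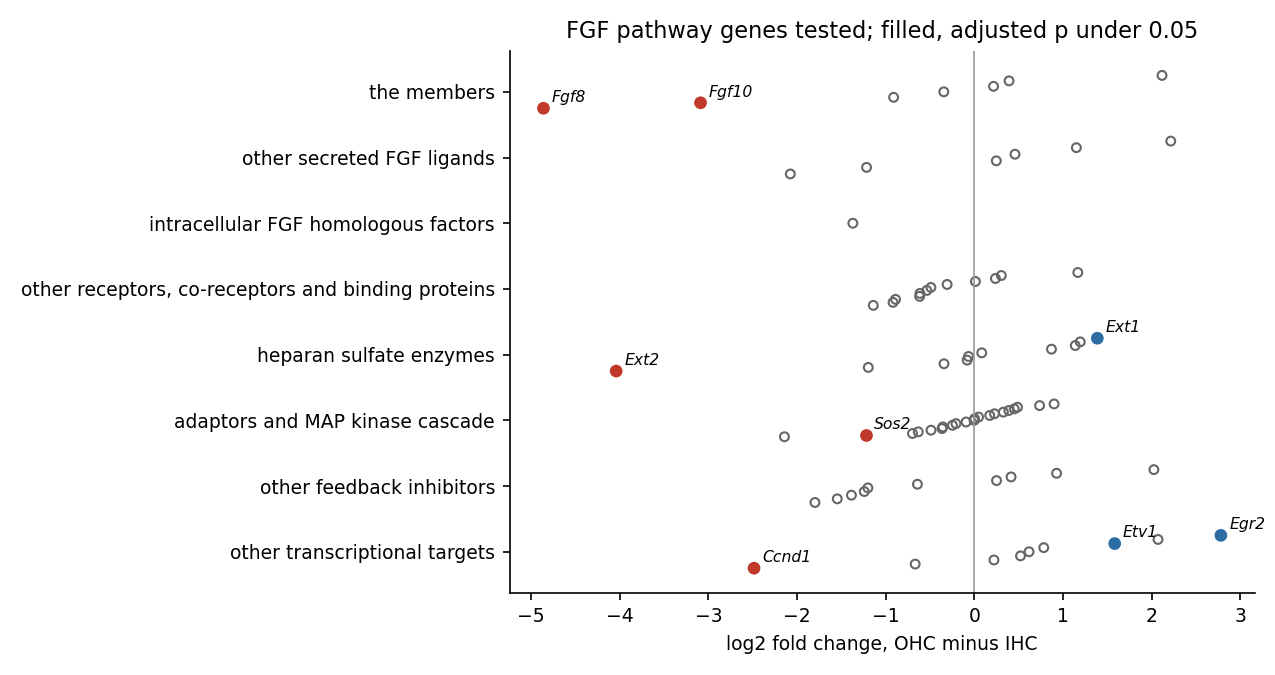
Log2 fold change of OHC over IHC (x axis) for every tested gene of the 10 members and of the 7 other pathway lists, with 1 point per gene. Filled points passed the test, red with the higher level in IHCs and blue with the higher level in OHCs. Fgf8 at -4.86 and Fgf10 at -3.09 lie far to the left, and the 6 other genes that passed are split evenly between the directions.

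Of 14 other feedback inhibitors, 13 had an identifier in the files, 10 were tested and 0 passed in edgeR in either direction. Their median log2 fold change was -0.92. Among the 10, 4 had an unadjusted p under 0.05 in edgeR, against 2889 of all 13269 tested genes. DESeq2 called 2 of the 10, Shisa2 and Il17rd, against 17.3% of all genes to which it gave an adjusted p. Nf1, the highest gene of the list, encodes neurofibromin, which turns RAS off, and stood at 95.2 to 167 CPM in IHC libraries and 113 to 174 CPM in OHC libraries (log2 fold change 0.25, standard error 0.20, edgeR adjusted p = 0.51). The list of intracellular FGF homologous factors, which do not signal through FGF receptors, held 4 genes. Only Fgf11 was tested, at 30.8 to 222 CPM in IHC libraries and 15.7 to 58.3 CPM in OHC libraries (log2 fold change -1.37, standard error 0.43, edgeR adjusted p = 0.0637).

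Within a cell type the members were ordered by mean TPM. In IHCs the order was Fgf8 at 108 TPM, Fgf10 at 33.1, Spry2 at 10.8, Fgfr1 at 10.004, Etv5 at 9.99, Fgfr3 at 6.46, Spry1 at 2.91, Fgf20 at 2.42, Spry4 at 0.63 and Fgfr2 at 0.030 TPM. In OHCs it was Fgfr3 at 25.3 TPM, Spry2 at 20.1, Fgfr1 at 14.2, Fgf8 at 6.73, Etv5 at 6.21, Fgf10 at 4.42, Spry1 at 2.46, Fgf20 at 1.61, Fgfr2 at 0.12 and Spry4 at 0.061 TPM. Fgf8 and Fgf10 thus led the order in IHCs and Fgfr3 led it in OHCs. Some places rest on 1 library, since without IHC replicate 6 the IHC means of Fgfr3 and Spry4 were 1.49 and 0.039 TPM, and without IHC replicate 2 that of Fgf20 was 0.52 TPM. Neighbours were compared by an exact paired permutation test (two-sided) of log2 TPM over the 6 libraries of the cell type. None of the 18 neighbouring pairs passed after adjustment, and the smallest p that 6 libraries allow is 0.03125, which both Fgf8 over Fgf10 in IHCs and Fgfr1 over Fgf8 in OHCs reached (adjusted p = 0.281, higher in 6 of 6 libraries). With 18 pairs no pair can pass unless 12 or more reach that smallest p, so the test says little about which neighbours differ. The remaining 16 pairs had unadjusted p values from 0.0625 to 0.938 in the same exact test.

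The genes whose log2 CPM most resembled Fgf8 over the 12 libraries were Nefm, a neurofilament gene, Shtn1, a gene for an axon growth protein, and Cfap46, a gene for a ciliary protein, with Pearson correlations of 0.976, 0.954 and 0.953. For Fgf10 they were Brip1, a DNA helicase gene, Fign, a gene for a microtubule-severing protein, and Xirp2, a gene for an actin-binding protein, at 0.963, 0.950 and 0.947. For Fgfr3, added to this list after its values were seen, they were Ell2, Prox1 and Arhgef3, at 0.960, 0.958 and 0.957. Each correlation is a description over 12 libraries that fall into 2 cell types and carries no test. Ell2 stood at 19.5 CPM in IHC replicate 6 and at 7.41 CPM or less in the other IHC libraries, and Arhgef3 at 6.51 CPM and 0.15 CPM or less. The OHC libraries held 14.4 CPM or more of Arhgef3. These genes were picked by correlation over the same 12 libraries, IHC replicate 6 included. Raised values in that library were therefore favoured by the choice and are no further finding about it.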

How the data were processed

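The files held counts of read pairs per gene, 1 file per library. Per the labels and the study's methods, the authors removed ribosomal RNA, amplified cDNA from random primers, sequenced it as pairs, and made the deposited counts with Trimmomatic, STAR in 2 passes and HTSeq on GRCm39 (tools credited to the submitters' processing notes, versions and strand setting not given in the sources used here). Between 24.2% and 46.1% of the totals fell on summary lines that name no gene and were left out. Amplified reads without molecular identifiers are not independent molecules, so detection limits cover counting error only.

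Counts were tested with edgeR 4.0.16 in R 4.3.3 (quasi-likelihood test, default low-count filter by cell type, TMM scaling, Benjamini-Hochberg adjustment over all tested genes, threshold 0.05), on all 12 libraries without covariates. Gene names, coordinates, lengths and start sites came from GENCODE vM39, which held 98.8% of the gene identifiers. The paper names an earlier GENCODE release as its reference. Exonic lengths, and so TPM, and exonic overlaps may therefore differ from those of the annotation behind the counts. CPM values use TMM library sizes. TPM values use exonic length, and their comparison adds 0.1 TPM before the log. The correlations use a prior count of 2. Promoter windows of Fgf10 and Fgfr3 came from the GRCm39 genome, and that of Fgf8 is not reported here. The test was tried on simulated data with known answers.

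The members and all gene lists were chosen with earlier results of these data known. Named genes are the 10 members, up to 4 genes per direction that passed in each other list, the highest gene of each list, and the 3 genes most correlated with each member that passed. Spry3 has no identifier in the files. The labels name 2 places of library synthesis but do not tie libraries to them, so no batch could be examined. Alternatives were DESeq2 1.42.0, the edgeR exact test, other scalings, ribosomal RNA genes removed, other filters, a replicate block, and each library left out. The numbers shared by IHC and OHC replicates did not pair the libraries. Amino acid sequences were not used here.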

Additional observations from a re-analysis of the deposited data

Results flagged for a closer look

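For 6 of the 20 combinations of a member and a cell type, 1 library's gap to the nearest other library, as a share of the range of the 6 libraries, exceeded Dixon's critical value of 0.625, where chance gives about 1 in 20 for normally distributed values. CPM values are skewed, and over all tested genes 19.3% of such combinations exceeded the same limit. Fgf20, Fgfr2 and Spry4, which were flagged below, were not tested and are not part of that share. The count of 6 in 20 and the 19.3% are therefore not on like sets of genes. Fgfr3 stood at 73.3 CPM in IHC replicate 6, and the next IHC library at 11.8 CPM. Spry4 stood at 6.32 CPM in the same library, and the next IHC library at 0.42 CPM. Fgf8 stood at 226 CPM in IHC replicate 1, the library with the largest share of ribosomal RNA, and the next IHC library at 90.7 CPM. In TPM, without TMM scaling, Fgf8 stood at 146 in that library, below 182 in IHC replicate 4. Fgf20 stood at 9.23 CPM in IHC replicate 2, and the next at 1.11 CPM. Fgfr1 stood at 106 CPM in OHC replicate 5, and the next OHC library at 63.0 CPM. Fgfr2 stood at 1.85 CPM in OHC replicate 1, and the next OHC library at 0.19 CPM. The cause was not tested for any of them.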

How the results depend on the processing

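Fgf8 passed with the higher level in IHCs under all 20 alternatives that could test it (log2 fold change -5.15 to -4.19, adjusted p up to 0.00153 in edgeR), and Fgf10 under all 21 (-3.28 to -2.90, up to 0.00125). Fgf8 was removed by a filter of 10 counts in every library, since OHC replicate 5 held 6, which left 1 member called higher in IHCs. Fgfr3 made the count of members called higher in OHCs 1 with DESeq2, the edgeR exact test, no filter and the replicate block, and also with IHC replicates 1 and 6 left out together, an alternative chosen after seeing the data. Leaving out 1 library gave 0 to 1. With the replicate block, although the numbers do not pair the libraries (correlations of -0.031 to 0.018, and 0 of 6 libraries closest to its own number), the log2 fold change of Fgfr3 was 3.52 (edgeR adjusted p = 0.00124) and 512 genes were called higher in IHCs and 391 in OHCs. With 1 library left out Fgfr1 ran from -0.0091 (without OHC replicate 5) to 0.31 and Spry1 from -0.85 to 0.025 (without IHC replicate 6).

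Of the other pathway genes, 5 were called higher in IHCs with DESeq2, the exact test and the replicate block, 6 with no filter, and 3 to 5 with 1 library left out (5 without IHC replicate 1). Those called higher in OHCs numbered 7 with DESeq2 and 1 to 5 with 1 library left out, 1 without OHC replicate 2 and 5 without IHC replicate 6. Over all genes, DESeq2 called 1339 higher in IHCs and 1590 in OHCs, no filter 893 and 918, and the exact test 519 in OHCs, against 506 and 324, which moved the IHC share of calls from 61.0% to 45.7% with DESeq2 and 49.3% with no filter. The test of neighbouring levels gave 0 differing pairs in every setting, which says nothing about stability, since the design needs 12 of 18 pairs at the smallest p for any to pass. Low counts limit Fgf20, Fgfr2 and Spry4, which were not tested.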

Other observations

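Sdc1, the gene of the heparan sulfate co-receptor syndecan-1, did not pass the low-count filter over the 12 libraries and so was not tested with the members. It was at 0.27 CPM or less in every IHC library and ran from 0.086 to 15.4 CPM in OHC libraries, with a median of 2.02 CPM. DESeq2 gave it a log2 fold change of 6.23 (adjusted p = 2.15e-05) and edgeR with no filter 6.12 (adjusted p = 0.0172). Shisa2, which encodes an inhibitor that holds FGF receptors inside the cell, did not overlap between the groups, at 20.3 to 35.9 CPM in IHC libraries and 4.81 to 15.9 CPM in OHC libraries, and did not pass in edgeR (log2 fold change -1.39, standard error 0.42, adjusted p = 0.0530), while DESeq2 gave it an adjusted p of 0.000118. Fgf21, a ligand of the endocrine group, had a log2 fold change of 2.22 over the 12 libraries (edgeR adjusted p = 0.363) and of 5.02 without IHC replicate 6 (edgeR adjusted p = 0.0478). These 3 genes were singled out after their values were seen.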
